A study of Mus musculus with 6 samples.

Results

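Cd4, Cd8a, Cd8b1, Zbtb7b, Runx1, Runx3 and Cbfb are the 7 genes described here, taken by symbol from the 48397 rows of the count table. All 7 were found, and all 7 passed the filter on low counts that left 12312 genes for testing. They were measured by RNA-Seq in stage 0 iNKT cells, the first thymic precursors of invariant natural killer T cells after positive selection. There were 3 libraries from BALB/c mice, whose genotype is given as WT, and 3 from SKG mice, which are of the BALB/c strain and carry a hypomorphic mutation of the kinase gene Zap70 in every cell. All mice were 8 to 10 weeks old, and each library came from about 1000 cells sorted from 3 pooled thymi, so that a replicate is a pool. The BALB/c mice were bought from a supplier and were not described as littermates of the SKG mice. Both groups were sorted as positive for the PBS57–CD1d tetramer, CD24 and CD69 and negative for CD44 and CD8, with little or no CD4 on the surface. The comparison asks how weaker signaling through the TCR bears on gene expression in these early cells. Since CD4 and CD8 protein were part of the gate, the levels of Cd4, Cd8a and Cd8b1 mRNA are those of cells chosen for low surface protein. A change in the share of cells that express a gene and a change in RNA per cell cannot be told apart in such pools.

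CD4 and CD8 are the coreceptors of the TCR. They bind MHC molecules and bring the kinase Lck to the receptor, and CD8 on thymocytes is mostly a dimer of an α and a β chain. ThPOK, encoded by Zbtb7b, directs thymocytes to the CD4 helper lineage, whereas Runx proteins silence Cd4, act at the Cd8 enhancers and repress Zbtb7b in cells of the CD8 lineage. Each Runx protein binds DNA together with its partner CBFβ, encoded by Cbfb. Mouse iNKT cells arise from DP thymocytes, which carry both CD4 and CD8, and lose CD8 as they develop. ThPOK is known to keep CD8 off mature iNKT cells.

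Depth was similar, from 37176544 to 43115544 reads on genes per library, while between 10835 and 14791 genes reached 10 reads. Correlations of log2 CPM between libraries lay between 0.734 and 0.895, and the highest was that between a BALB/c and an SKG library. CPM here are reads of a gene relative to the TMM-scaled total of its library. The p-values set the difference between the genotypes against the spread between these pools. The 7 genes of the T cell marker list had reads in every library and summed to between 5436 and 7508 CPM, with Trbc2 as the most abundant. All 7 markers of stage 0 iNKT cells also had reads in every library, although Trav11 had only 1 in BALB/c replicate 2. The summed levels of the 7 were 1697 to 2066 CPM in BALB/c and 973 to 1414 CPM in SKG. Egr2 was the most abundant and made up most of these sums, at means of 1351 CPM in BALB/c and 777 CPM in SKG. The TCR segments Trav11d (means of 26.1 CPM in BALB/c and 25.1 CPM in SKG) and Traj18 (1.55 and 1.43 CPM) overlapped. Egr2 and Cd69 did not overlap between the genotypes and were lower in SKG, beside 7.12% of all genes tested. Cd24a, also part of the gate, had a log2 fold change of 1.49, SKG over BALB/c, with overlapping libraries. The study names Egr2 for this comparison, so its difference in the same libraries is not independent evidence. Zap70 mRNA, at 374 to 498 CPM in BALB/c and 322 to 409 CPM in SKG, does not report on the SKG mutation itself.

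Across the 7 genes, Runx3 was the member whose libraries did not overlap between the genotypes, and it was higher in SKG. The other 6 overlapped. With edgeR's quasi-likelihood test, 0 of the 7 members passed the thresholds (FDR under 0.1, fold change 1.5 or more), against 0 of all 12312 genes (0%). At an unadjusted p under 0.05 there was 1 of 7, beside 671 genes or 5.45% of those tested. Non-overlap held for 1 of 7 members, beside 13.9% of genes tested in either direction, 6.77% with SKG above and 7.12% with BALB/c above. No gene passed with limma-voom, where 968 had an unadjusted p under 0.05. DESeq2's Wald test without shrinkage called 1 of the 7, Runx3, and 370 of the 14342 genes to which it gave an adjusted p, or 2.58%. Runx3 is among the genes that the study names for this comparison, so its difference in the same libraries is not independent evidence.

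**Figure D1:**
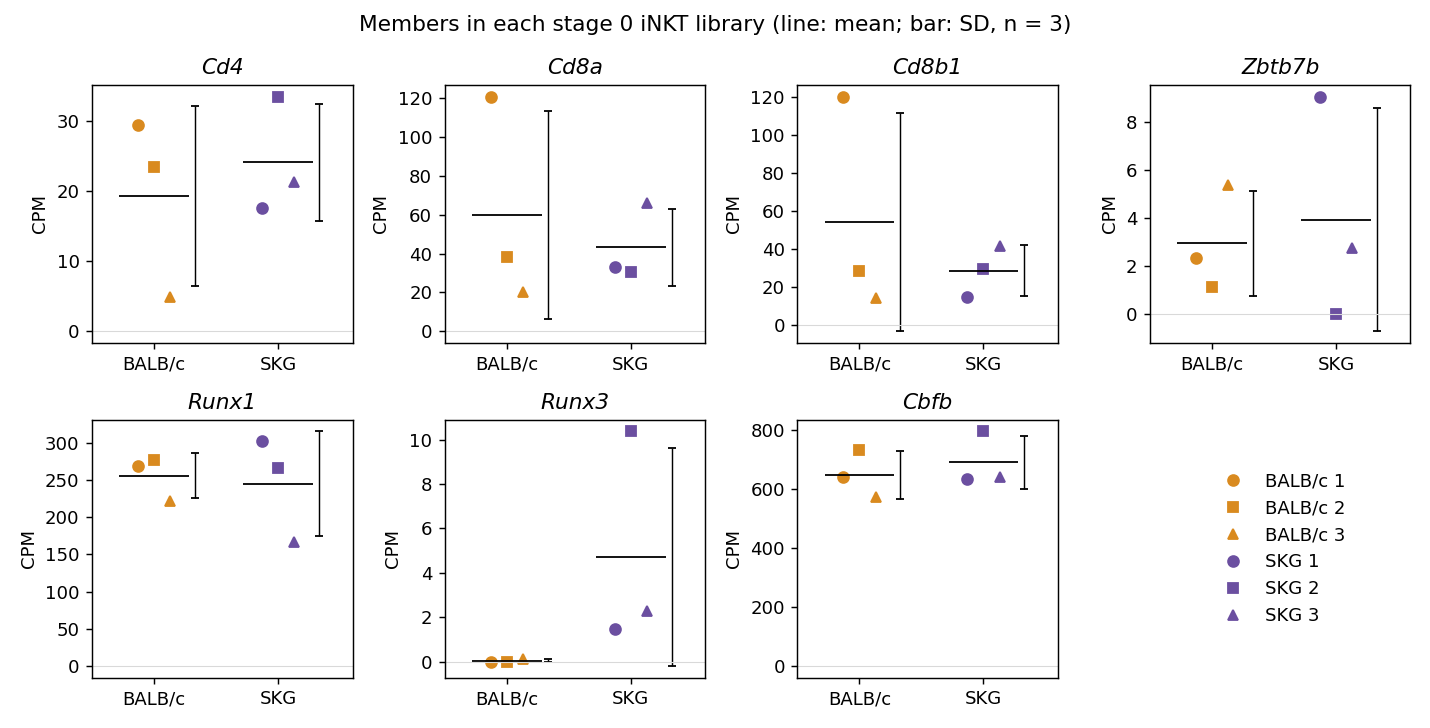
Each panel plots 1 gene in CPM (y axis, linear, with a line at 0) for the 3 BALB/c and 3 SKG libraries, with the group mean as a line and the SD as a bar beside it, which can reach below 0. Runx3 lies at or near 0 in BALB/c and between 1.49 and 10.4 CPM in SKG, while the libraries of the other 6 genes overlap.

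Runx3 encodes the Runx factor of the CD8 lineage and of cytotoxic cells. It lies on the forward strand of chromosome 4 of GRCm38, from 135120652 to 135177990, with no exon of another gene overlapping its own. The BALB/c libraries held 0, 0 and 5 Runx3 reads, whereas 60, 403 and 83 were counted for SKG. In CPM these were 0, 0 and 0.111 in BALB/c and 1.49, 10.4 and 2.30 in SKG. Every SKG library thus lay above every BALB/c library, and SKG replicate 2 was the highest by far. Runx3 passed the filter on low counts through its SKG libraries, so a difference was built into its being tested. By counting error alone, a count of 0 allows up to 3 reads, which is 0.0727 CPM in BALB/c replicate 1 and 0.0809 CPM in BALB/c replicate 2. These limits do not cover transcripts lost from such small pools before sequencing, so a 0 is not a measured absence. The fitted log2 fold change, SKG over BALB/c, was 6.86 (standard error, SE, 2.13, unadjusted p = 0.0161 and adjusted p = 0.830 with edgeR), with all 3 SKG libraries above those of BALB/c. On the BALB/c side this value rests on the 5 reads of replicate 3. It went to 5.56 without SKG replicate 2, where the unadjusted p from edgeR was 0.0538. Without BALB/c replicate 3 it was 10.52, a value that depends on the prior count because the remaining BALB/c libraries are at 0. DESeq2 gave an adjusted p of 0.00316 for a log2 fold change of 7.001, while limma-voom gave an unadjusted p of 0.00631 and an adjusted p of 0.591.

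Runx1 encodes the factor that acts at the Cd4 silencer in immature thymocytes. Its gene is on the reverse strand of chromosome 16, from 92601466 to 92826149. Runx1 was read 11101, 10282 and 9980 times in BALB/c and 12181, 10333 and 6035 times in SKG. The corresponding levels were 269, 277 and 221 CPM in BALB/c and 302, 266 and 167 CPM in SKG. SKG held both the highest and the lowest library, so the genotypes overlapped. The means were 256 ± 30.4 CPM (SD, n = 3 libraries) and 245 ± 70.1 CPM (SD, n = 3), which gave -0.062 as log2 fold change (SE 0.25, edgeR adjusted p = 0.996). Without SKG replicate 3, the lowest library, it was 0.16. Runx1 shares 106 bases of exon with Gm26626 on the opposite strand, which had 57 reads in all libraries together.

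Cbfb encodes CBFβ, which raises the affinity of Runx proteins for DNA and protects them from degradation. Its position is chromosome 8, 105170674 to 105217989 on the forward strand, and it was the most even of the 7 genes. Its counts were 26403, 27223 and 25875 reads for BALB/c, with 25590, 30943 and 23234 for SKG. These were 640, 734 and 573 CPM in BALB/c and 635, 796 and 642 CPM in SKG. The highest library was 1.39 times the lowest over both genotypes. With edgeR, the SKG to BALB/c difference on the log2 scale was 0.09 (SE 0.16, edgeR adjusted p = 0.991), smaller than the spread between libraries. The coefficient of variation was 12.5% in BALB/c and 13.1% in SKG for Cbfb and 11.9% and 28.6% for Runx1, whereas that of Runx3 reached 104% within SKG.

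Runx2 is the third Runx gene, known for bone formation. It did not pass the filter, with counts of 0, 16 and 7 for BALB/c, and of 5, 5 and 500 for SKG. Nearly all of its reads were therefore in SKG replicate 3. Of the reads on Runx1, Runx2 and Runx3 together, Runx3 took 0 of 11101 in BALB/c replicate 1, 0% of those in replicate 2 and 0.05004% in replicate 3. In the same order of libraries the share was 0.490%, 3.75% and 1.25% in SKG. Exact Clopper-Pearson 95% intervals, which cover counting error only, reached at most 0.117% in BALB/c (replicate 3) and began at 0.374% or higher in SKG (replicate 1). Per kilobase of exon, the mean share of Runx3 was 0.0401% ± 0.0694 for BALB/c and 4.21% ± 3.87 for SKG (SD, n = 3 each). Runx1 was thus the main Runx transcript in all 6 libraries.

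Each Runx gene is transcribed from a distal and a proximal promoter, and the distal promoter of Runx3 is the one known for CD8-lineage cells. Reads summed per gene do not tell the transcripts of these promoters apart. The RefSeq table of promoter windows (GRCm38.p6, 250 bases before to 50 after a start) held 8 windows for 5 of the 7 members, and Cd4 and Cd8b1 were not matched. The letters TGTGGT, the core that Runx proteins bind, were searched on both strands, where the other strand reads ACCACA. They were found in 5506 of 32851 windows (16.8%) and at 2 or more places in 595 (1.81%). The Runx3 window at the distal start held 2, at -134 and -126 from the start, and the Runx1 window at the distal start also held 2. The windows at the proximal starts of Runx3 and Runx1 and those of Cbfb and Cd8a held 0, and of the 2 Zbtb7b windows 1 held the letters once. The longest run shared by windows of Runx1, Runx2 and Runx3 was 18 bases, which holds ACCACA at 2 places. It was present in 4 of all windows, the fourth being that of Gm16225. The run begins before the start in Runx3, at -136, but after it in Runx1 and Runx2, at 27 and 22. It is shown in capitals below, with the 250 bases before the Runx3 start and 30 bases each of Runx1 and Runx2. A match of letters is a description of the window and not of binding in these cells.
Runx3, chr4:135120395-135120644, forward strand: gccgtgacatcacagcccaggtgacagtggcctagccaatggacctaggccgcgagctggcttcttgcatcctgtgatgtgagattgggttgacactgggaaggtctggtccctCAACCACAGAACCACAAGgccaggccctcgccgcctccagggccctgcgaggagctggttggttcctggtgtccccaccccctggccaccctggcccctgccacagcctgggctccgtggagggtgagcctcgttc
Runx1, chr16:92826025-92826054, reverse strand: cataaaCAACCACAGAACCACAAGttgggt
Runx2, chr17:44814583-44814612, reverse strand: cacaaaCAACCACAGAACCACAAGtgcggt
Zbtb7b, chr3:89387743-89387772, reverse strand, with TGTGGT in capitals: ctggcgaggaacTGTGGTatgtgagtgggt

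Zbtb7b encodes ThPOK and lies on the reverse strand of chromosome 3, from 89377644 to 89394776. Its counts were 97, 42 and 243 reads for BALB/c, with 365, 0 and 100 for SKG. Its levels were 2.35, 1.13 and 5.38 CPM in BALB/c and 9.06, 0 and 2.77 CPM in SKG. The highest and the lowest library were both SKG, and the genotypes overlapped. The 0 in SKG replicate 2, which by counting error alone allows up to 0.0772 CPM, was in the library with the most Runx3 reads. The mean was 2.95 ± 2.19 CPM for BALB/c and 3.94 ± 4.64 CPM for SKG (SD, n = 3 each). The fitted log2 fold change of 0.42 had a standard error of 1.90 (edgeR adjusted p = 0.998), and a difference was not detectable with this spread. It was -1.12 without SKG replicate 1 and 1.02 without SKG replicate 2. An exon of the non-coding gene Gm15417 on the opposite strand shares 116 bases with Zbtb7b. Gm15417 had 265 reads in all libraries together, and since strand was not used in counting, reads from the shared bases cannot be told apart.

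Set side by side on the same scale of RPKM (CPM per kilobase of exon), Zbtb7b was above Runx3 in each BALB/c library, at 0.421, 0.203 and 0.962 against 0, 0 and 0.0221. In SKG replicate 1 the order was the same, at 1.62 for Zbtb7b and 0.298 for Runx3. In SKG replicate 2 it was inverted, at 0 and 2.07, and in SKG replicate 3 the levels were close, at 0.495 and 0.459. Of the reads on both genes, Zbtb7b took 99.3% ± 1.16 for BALB/c and 46.8% ± 43.5 for SKG (SD, n = 3 each). Within SKG the share was 85.9% (exact 95% interval 82.2% to 89.1%) in replicate 1, 0% (at most 0.911%) in replicate 2 and 54.6% (47.1% to 62.0%) in replicate 3. The intervals cover counting error only. The 3 SKG libraries thus lay farther from each other than replicate 1 lay from BALB/c.

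Cd8a and Cd8b1 encode the α and β chains of CD8 and are neighbors on chromosome 6, with a gap of 35.9 kb. Cd8b1 extends from 71322788 to 71337494 and Cd8a from 71373427 to 71379173, both on the forward strand. Although the cells were sorted as negative for CD8 protein, both transcripts were found in every library. Reads of Cd8a numbered 4985, 1412 and 922 for BALB/c (121, 38.1 and 20.4 CPM), with 1332, 1190 and 2396 for SKG (33.1, 30.6 and 66.3 CPM). Those of Cd8b1 were 4958, 1045 and 651 for BALB/c (120.2, 28.2 and 14.4 CPM), with 592, 1148 and 1496 for SKG (14.7, 29.5 and 41.4 CPM). For both genes BALB/c replicate 1 was the highest library, SKG replicate 3 the next and BALB/c replicate 3 the lowest. On the log2 scale SKG over BALB/c came to -0.47 (SE 0.70, edgeR adjusted p = 0.991) for Cd8a and -0.93 (SE 0.84, edgeR adjusted p = 0.991) for Cd8b1. Without BALB/c replicate 1 these turned to 0.57 and 0.43, so the direction of both rests on that library. Per read of Cd8a there were 0.995, 0.740 and 0.706 reads of Cd8b1 in BALB/c and 0.444, 0.965 and 0.624 in SKG. The mean ratio was 0.814 ± 0.158 (SD, n = 3) and 0.678 ± 0.264 (SD, n = 3), with overlapping libraries. Per kilobase of exon Cd8b1 was above Cd8a in each of the 6 libraries, by 1.09 to 2.44 times.

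DP thymocytes are the cells the sort was designed to keep out. Of 10 markers of these cells besides the coreceptors, 6 had reads in all libraries, with Cd1d1 as the most abundant. Libraries did not overlap for 2, Aqp11 lower and Cd1d1 higher in SKG, beside 13.9% of all genes tested in either direction. Aqp11 was down to 8 and 1 reads in SKG replicates 2 and 3. The summed level of the 10 markers was 356, 168 and 123 CPM in BALB/c and 177, 254 and 337 CPM in SKG. The libraries with the most Cd8a, BALB/c replicate 1 and SKG replicate 3, thus also had the highest sums. Rag1, which cuts TCR genes for recombination, was counted 1438, 83 and 4 times for BALB/c, with 0, 379 and 34 for SKG. Rag2, its partner, had 1044 reads in BALB/c replicate 1, 398 in SKG replicate 3 and at most 3 elsewhere. Ptcra, the pre-TCR α chain, had 227 reads in BALB/c replicate 1, 152 in SKG replicate 2 and 0 in the other libraries. BALB/c replicate 1 thus had the most reads of each, and it also held most of the hemoglobin reads, led by Hbb-bs, with an erythroid sum of 69.7 CPM against at most 1.57 CPM elsewhere. SKG replicate 1, with no Rag1 or Rag2 read, still had 1332 reads of Cd8a and 592 of Cd8b1. The part of other cells in the Cd8a and Cd8b1 levels was not tested.

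**Figure D2:**
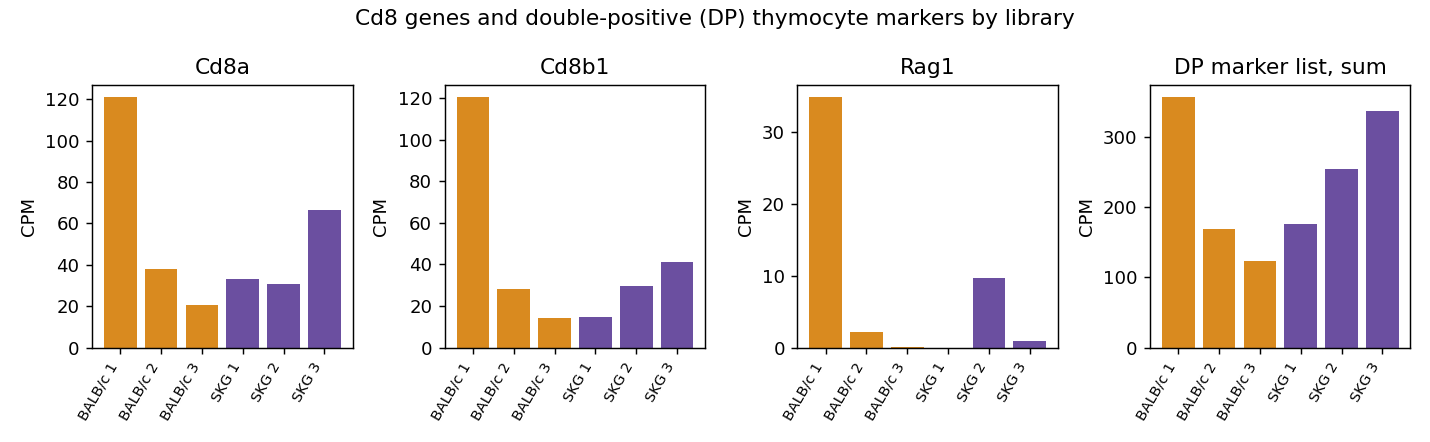
Bars give the CPM (y axis from 0, its own scale in each panel) of Cd8a, Cd8b1, Rag1 and the sum of 10 DP thymocyte markers in each of the 6 libraries, BALB/c in orange and SKG in purple. BALB/c replicate 1 is the highest bar in all 4 panels, at 121, 120.2, 34.9 and 356 CPM.

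Markers of other cells that may carry the coreceptors or Runx factors were read in the same libraries. The summed CPM of 9 myeloid and dendritic cell markers ranged from 9.85 to 64.8 in BALB/c and from 8.88 to 143 in SKG, with Csf1r at no more than 3 reads in a library. Lyz2, the most abundant, was at 53.7 CPM in BALB/c replicate 1 and 107 CPM in SKG replicate 3, the libraries with the most Cd8a, and at most 5.07 CPM elsewhere. The sums of 7 B cell markers were 1.89 to 6.86 CPM in BALB/c and 3.16 to 8.38 CPM in SKG, with Cd79a as the most abundant. Among 5 markers of innate lymphoid or NK cells, Ncr1 and Eomes had 0 reads in each library, and the sums were 2.91 to 5.89 CPM in BALB/c and 0 to 3.45 CPM in SKG. Gzma was the most abundant of these. For 6 thymic epithelial markers the sums were 28.1 to 41.4 CPM in BALB/c and 10.0 to 86.9 CPM in SKG, nearly all from Epcam, with Krt5 and Psmb11 at 0 reads. Of these lists and the DP list, 0 had sums that separated the genotypes. The part of these cells in the levels of the members was not tested.

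Cd4 lies on the reverse strand of chromosome 6, from 124864692 to 124888221. Reads of Cd4 numbered 1216, 871 and 218 for BALB/c, with 708, 1302 and 770 for SKG. Its levels were 29.5, 23.5 and 4.83 CPM in BALB/c and 17.6, 33.5 and 21.3 CPM in SKG. BALB/c replicate 3 was the lowest and SKG replicate 2 the highest library, and the genotypes overlapped. The means were 19.3 ± 12.9 CPM (SD, n = 3) and 24.1 ± 8.33 CPM (SD, n = 3), or 0.32 as log2 fold change (SE 0.76, edgeR adjusted p = 0.991). Without BALB/c replicate 3 it was -0.13. Per read of Cd8a there were 0.244, 0.617 and 0.236 reads of Cd4 in BALB/c and 0.532, 1.09 and 0.321 in SKG, again with overlap. In SKG replicate 2, where Runx3 was highest and Zbtb7b had 0 reads, Cd4 was the highest of all libraries, both in CPM and relative to Cd8a. These are values of 1 library, and a relation between the genes was not tested.

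Ordered by the median RPKM over the 6 libraries, Cbfb came first at 184 (165 to 229), followed by Runx1 at 22.2 (13.9 to 25.1), Cd8b1 at 19.5 (9.72 to 81.1) and Cd8a at 9.78 (5.61 to 33.2). Cd4 was at 5.55 (1.197 to 8.31), Zbtb7b at 0.458 (0 to 1.62) and Runx3 at 0.160 (0 to 2.07). Cbfb was above every other member in every library. Between the other neighbors in this order the ranges overlapped. The 7 genes fell into an even pair, Cbfb and Runx1, whose highest library was 1.39 and 1.81 times the lowest, and 3 coreceptor genes that spread from 5.92 times for Cd8a to 8.34 times for Cd8b1. Zbtb7b and Runx3 each had libraries with 0 reads.

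**Figure D3:**
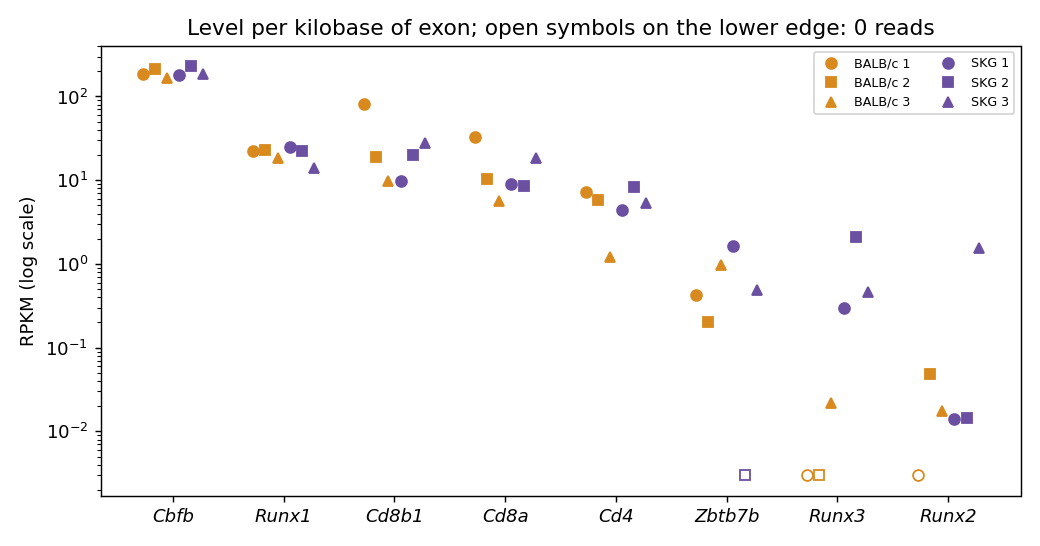
RPKM (y axis, log scale) of the 7 members and Runx2 in each library, ordered by their median, with libraries of 0 reads as open symbols placed on the lower edge. Cbfb and Runx1 form tight groups at medians of 184 and 22.2, whereas Zbtb7b and Runx3 range from 0 to 1.62 and 2.07.

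For each member the tested genes with the most similar pattern were found by the root mean square difference of log2 CPM over the 6 libraries, after each gene was centered on its own mean. For Cbfb these were Acads (0.0579), Lef1 (0.0598) and Vav1 (0.0727), and for Runx1 they were Luc7l (0.0802), Dgcr2 (0.0803) and Gata3 (0.0884). Such small differences mark genes that were as even as Cbfb and Runx1. For Cd8a they were the TCR segments Trav6n-5 (0.20) and Trbv3 (0.25) with Fam193a (0.21) between them, and for Cd8b1 they were Eml1 (0.25), Xiap (0.36) and Vdac3-ps1 (0.40). Slfn2 (0.40), Myo18a (0.44) and 3000002C10Rik (0.45) came nearest to Cd4, and Lyrm5 (0.65), Fastkd1 (0.68) and Trim13 (0.71) to Zbtb7b. Runx3 had the most distant neighbors, Gm16169 (0.79), Gm10642 (0.80) and Nav1 (0.80).

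A list of 12 transcription and chromatin factors of T cell development, here called upstream regulators, was drawn up around ThPOK. Not every gene on it is known to act upstream of ThPOK. All 12 were tested, and 4 had libraries that did not overlap, all higher in SKG, where 6.77% of all genes tested were. The median log2 fold change of this list was 0.28, with 10 of 12 above 0, beside a median of -0.016 over all genes tested. Tcf7, the TCF1 gene, was at 175 to 359 CPM in BALB/c and 732 to 882 CPM in SKG, and Satb1, a chromatin organizer that acts at Zbtb7b, Runx3 and the coreceptor genes, at 235 to 357 and 599 to 1153 CPM. The study names both for these libraries, so their differences are not independent evidence. The list was chosen with earlier results of these data known, so its count beside 6.77% is a description only. Tcf3, the E2A gene, was at 391 ± 10.3 CPM for BALB/c and 575 ± 76.3 CPM for SKG (SD, n = 3 each, log2 fold change 0.56, SE 0.14, unadjusted p = 0.00652 and adjusted p = 0.686 with edgeR). Ets1, which acts at the Runx3 locus, was at 1162 ± 269 and 1774 ± 142 CPM (SD, n = 3 each, log2 fold change 0.61, SE 0.19, unadjusted p = 0.0165 and adjusted p = 0.830 with edgeR). Gata3, which activates Zbtb7b, was at 628 ± 30.4 and 557 ± 157 CPM (SD, n = 3 each), and its libraries overlapped.

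Of 11 partners and corepressors of Runx proteins 9 were tested, with a median log2 fold change of 0.13 that moved to 0.42 without BALB/c replicate 2. Libraries did not overlap for 1 gene with SKG above and 1 with BALB/c above, beside 6.77% and 7.12% of all genes tested. Aes, a short Groucho protein, did not overlap and was higher in SKG, at 81.2 ± 13.7 CPM in BALB/c and 166 ± 50.0 CPM in SKG (SD, n = 3 each, edgeR adjusted p = 0.686). The acetyltransferase gene Crebbp was higher in the BALB/c libraries, at 93.4 ± 32.5 against 59.2 ± 6.92 CPM. Of 11 further regulators of the Cd4 and Cd8 loci, all tested, 3 did not overlap and were higher in SKG and 1 was higher in BALB/c, beside the same 6.77% and 7.12%. Their median of 0.31 went to 0.087 without SKG replicate 2. Patz1 encodes MAZR, known to repress Cd8 and Zbtb7b, and was at 92.7 ± 20.0 CPM in BALB/c and 179 ± 28.03 CPM in SKG. The study names it for these libraries, so its difference is not independent evidence. Smarca4, the ATPase of BAF remodelers, was at 194 ± 28.03 and 303 ± 21.3 CPM, and Ikzf1, the Ikaros gene, at 279 ± 64.7 and 381 ± 51.8 CPM. Tet2, a demethylation enzyme, was at 15.0 ± 7.65 CPM in BALB/c and 2.77 ± 3.15 CPM in SKG (SD, n = 3 each, edgeR adjusted p = 0.952).

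Interleukin 7 signals through STAT5 to raise Runx3 and Cd8 in CD8-lineage thymocytes. Of 9 genes of this pathway 7 were tested, with a median log2 fold change of 0.45 that went to 0.11 without BALB/c replicate 2. Libraries did not overlap for 2 of the 7, both higher in SKG, beside 6.77% of all genes tested. Stat5a was at 105 ± 21.5 CPM in BALB/c and 196 ± 10.2 CPM in SKG (SD, n = 3 each, log2 fold change 0.90, SE 0.20, edgeR adjusted p = 0.619), and the kinase gene Jak1 at 646 ± 34.4 and 973 ± 149 CPM (log2 fold change 0.59, SE 0.15, edgeR adjusted p = 0.686). Il7r itself ranged from 5 to 1057 reads across the libraries and overlapped. The 7 genes of coreceptor-associated signaling, all tested, had a median of -0.042 and no gene without overlap. Lck, the kinase bound by both coreceptors, was at 1390 to 2122 CPM in BALB/c and 1666 to 2109 CPM in SKG, and Ptprc, the CD45 phosphatase gene, at 1781 to 1829 and 1649 to 1973 CPM.

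Of 10 genes of the CD8 lineage and of cytotoxic cells, several of which Runx3 is known to activate, 5 were tested. Their median log2 fold change was -1.22, and Prf1, Crtam and Nkg7 did not overlap, all higher in BALB/c, beside 7.12% of all genes tested. Il2rb, the IL-2 receptor β chain gene and the most abundant of the list, overlapped at 224 ± 68.0 and 239.5 ± 50.7 CPM (SD, n = 3 each), with a log2 fold change of 0.099. Crtam, a receptor of activated cytotoxic cells, was at 118, 102 and 77.1 CPM in BALB/c and 50.6, 38.4 and 38.4 CPM in SKG (log2 fold change -1.22, SE 0.28, unadjusted p = 0.00356 and adjusted p = 0.619 with edgeR). Prf1, the perforin gene, was at 102, 64.7 and 62.9 CPM in BALB/c and 57.5, 16.2 and 1.22 CPM in SKG (edgeR adjusted p = 0.988). Nkg7, a granule protein gene, was counted 362, 428 and 673 times for BALB/c, with 51, 0 and 112 for SKG, and passed the filter on low counts through its BALB/c libraries. Eomes, Tbx21 and Gzmb had 0 reads in all 6 libraries, and Itgae, a Runx3 target in CD8 cells, was counted 0, 1 and 0 times for BALB/c, with 17, 43 and 0 for SKG. In SKG replicate 2, the library with the most Runx3 and the most Itgae reads, Nkg7 had 0 reads. A relation between these 3 genes was not tested. Of 8 genes of the CD4 lineage and helper cells 6 were tested, with a median of -0.17. Libraries did not overlap for 1, which was higher in BALB/c, beside 7.12% of all genes tested. That gene, Tnfrsf4, which encodes OX40, was counted 151, 216 and 73 times for BALB/c, with 1, 2 and 2 for SKG, and passed the filter on low counts through its BALB/c libraries, so a difference was built into its being tested. Cd40lg, the CD40 ligand gene and a helper marker, was at 103 ± 21.4 and 95.8 ± 24.0 CPM, with overlap. Over the 7 lists, 0 genes passed the edgeR thresholds.

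**Figure D4:**
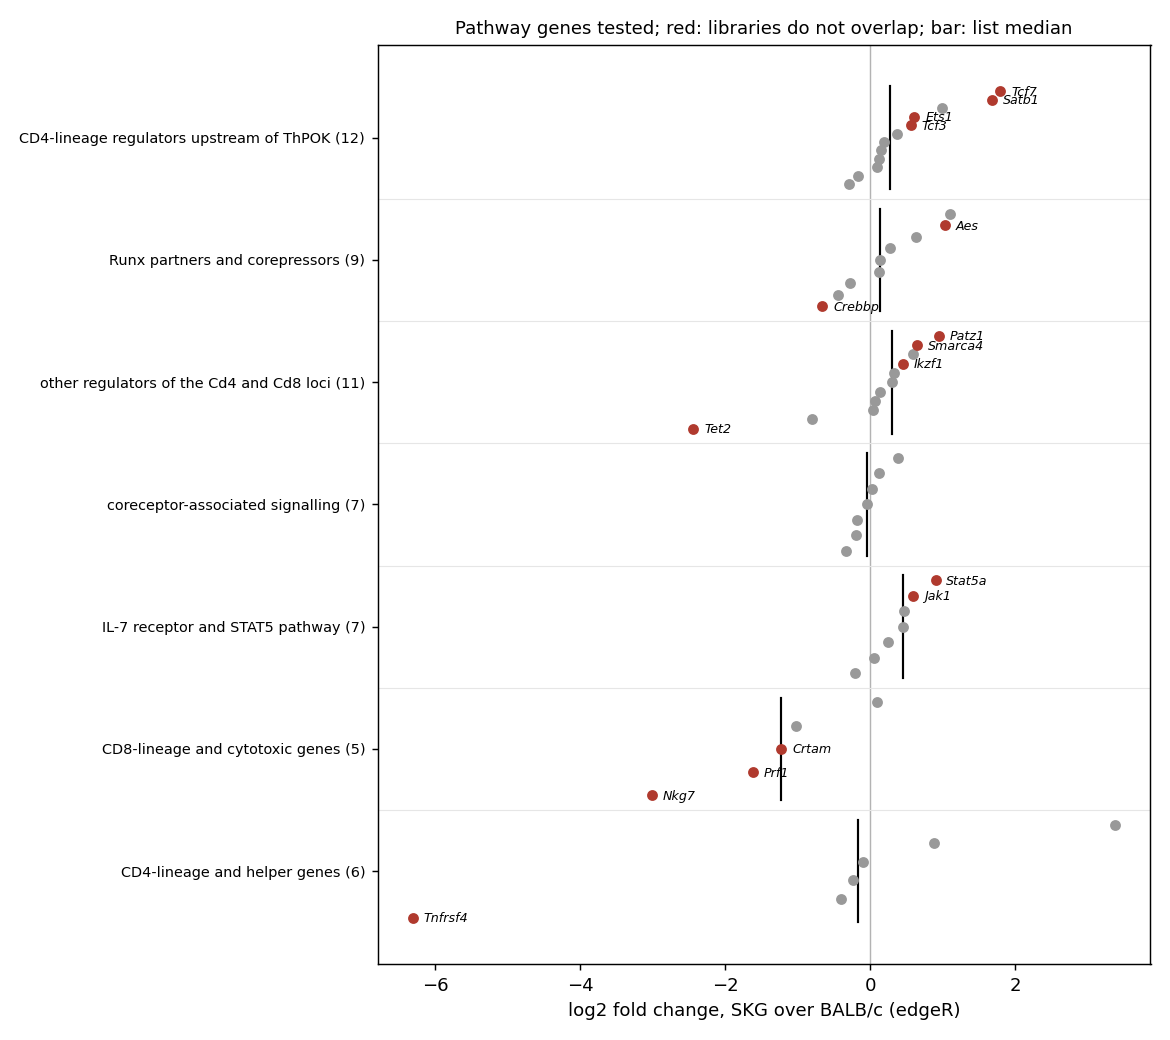
Points give the edgeR log2 fold change, SKG over BALB/c (x axis), of each tested gene of 7 pathway lists (y axis, number tested in brackets), with genes whose libraries do not overlap in red with their names and the list median as a bar. Tcf7, Satb1, Tcf3 and Ets1 stand to the right in the first list, and Nkg7, Prf1 and Crtam to the left among the CD8-lineage genes.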

How the data were processed

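The authors aligned 50-nt single-end reads to GRCm38 with HISAT2 2.1.0 and counted those on exons with featureCounts (Subread 1.4.4), Ensembl annotation, mapping quality of at least 10 and no regard to strand. The deposited counts are whole reads per gene and library, without normalization. A deposited table of the authors' DESeq2 comparison (means, fold changes, p-values) was not used. The paper and the labels name different amplification kits.

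The test was that of edgeR 4.0.16 in R 4.3.3 (filterByExpr, TMM, quasi-likelihood F test, all 6 libraries, no covariate), with Benjamini-Hochberg adjustment over 12312 genes. DESeq2 1.42.0 and limma 3.58.1 (limma-voom) were alternatives. Scripts were tested on simulated counts. Standard errors were derived from the F statistic. Log2 CPM had a prior count of 2. With 3 libraries against 3, an exact permutation test cannot go below p = 0.1, so none was run. Exon lengths and positions came from GENCODE M21 (GRCm38) by symbol, promoters from RefSeq. Each of the 7 members is named, together with list genes whose libraries do not overlap (in a list without any, the 2 most abundant), the most abundant and absent markers, and the 3 genes of most similar pattern. Ptcra, Rag1, Rag2, Aqp11, Cd69, Cd24a, Trav11, Trav11d, Traj18, Zap70, Gata3, Il7r, Itgae, Cd40lg, Il2rb, Gzmb, Tbx21 and Runx2 were named after their values were seen. Members and lists were chosen with earlier results of these data known.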

Additional observations from a re-analysis of the deposited data

How the results depend on the processing

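EdgeR called 0 genes and 0 members, and the same held for limma-voom, other scaling factors, library size alone, a filter of 10 reads in 3 libraries, an FDR of 0.05 and each library left out (0 to 0). DESeq2 called 370 genes and 1 member, Runx3 (log2 fold change 7.001), and edgeR without a filter 2 genes. At an unadjusted p under 0.05 edgeR gave 671 genes. Runx3 stayed above 0 in every alternative, which is no added support, since every SKG library lay above every BALB/c library. Its unadjusted edgeR p was 0.0538 without SKG replicate 2 and 0.0533 with the library number as a block (log2 fold change 10.83). The median log2 fold change of all genes was -0.016 with edgeR, 0.118 with DESeq2 and 0.0944 without a filter. Of 98 member values under alternatives 9 turned direction, none of them past the thresholds. Zbtb7b, with a library of 0 reads, gave -1.87 with limma-voom. Libraries of the 2 genotypes with the same title or library number had correlations of residuals from -0.145 to 0.00289. Pairs with different numbers were not compared, so a shared batch was not tested. With the title number as a replicate block Zbtb7b was -1.33, with the library number as a block -3.0002, and no member was called. The library number leaves BALB/c replicate 3 and SKG replicate 1 without a partner. With 1 library left out, the log2 fold change ranged from -0.13 to 0.78 for Cd4, -0.89 to 0.57 for Cd8a, -1.38 to 0.43 for Cd8b1, -1.12 to 1.18 for Zbtb7b, -0.24 to 0.16 for Runx1, -0.013 to 0.18 for Cbfb and 5.56 to 10.52 for Runx3. List medians turned for coreceptor-associated signaling (-0.16 to 0.11) and helper genes (-0.49 to 0.053), while the other 5 kept their sign but moved, from 0.11 to 0.58 for IL-7, 0.087 to 0.45 for the locus regulators, 0.12 to 0.42 for Runx partners, 0.25 to 0.42 for the upstream regulators and -1.62 to -1.07 for CD8-lineage genes (-2.04 with limma-voom). The IL-7 median was lowest without BALB/c replicate 2 and that of the locus regulators without SKG replicate 2. The Runx partner median was 0.31, 0.42 and 0.33 without BALB/c replicate 1, BALB/c replicate 2 and SKG replicate 3, and that of the upstream regulators 0.42 without BALB/c replicate 2. Per kilobase of exon the mean of Cd8b1 over Cd8a was 2.00 in BALB/c and 1.66 in SKG, and the Runx3 share in SKG was 4.21%. The causes were not tested. Depth allows 1 read to be seen at 0.0221 to 0.0277 CPM, and the spread between libraries, with a coefficient of variation of 91.8% in the common dispersion, limits the comparison.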
